A study of Mus musculus with 2 samples.

Results

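Transcripts of 10 genes that control passage through the G1 phase of the cell cycle were followed on 2 one-colour microarrays: the D cyclins Ccnd1, Ccnd2 and Ccnd3, the E cyclins Ccne1 and Ccne2, the kinases Cdk4 and Cdk6, and the inhibitors Cdkn1b, Cdkn2a and Cdkn2b. The genes were chosen by name, as the probes whose gene name on the array was one of these 10 out of 34650 gene names. They had 17 probes of the 55681 on the array. Each probe was printed as 1 spot, every one was well above background on both arrays, and 0 of the 17 spots on either array was flagged as an outlier.

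The arrays compared epiblast stem cells obtained in 2 ways from the mouse embryonic stem cell line E14Tg2A (strain 129/Ola), and the question was how alike the resulting cells are. EpiSC were ES cells placed directly in chemically defined minimal medium with FGF2 at 12 ng/mL and Activin A at 20 ng/mL. ELA-EpiSC received the same factors after the ES cells had first formed Epiblast-Like Aggregates, floating clusters that arise when LIF is withdrawn. Both groups thus share the cell line, the serum and LIF culture of the starting cells and the induction medium. Each group was 1 array of RNA pooled from 3 experiments, so no difference has a replicate, no p-value can be given, and the results hold for 1 cell line. GEO's source fields conflict with the other labels of both samples. They place both at 0DIV, the time of LIF withdrawal, and give an Argonaute immunoprecipitate for EpiSC and total RNA for ELA-EpiSC, while the titles, descriptions and molecule fields give total RNA of cells treated with FGF2 and Activin A. The titles were used. Because the RNA came from whole cultures, fewer cells of a type and less RNA per cell cannot be told apart.

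In G1, D cyclins bind CDK4 or CDK6 and the complex begins the phosphorylation of Rb, the pocket protein that restrains E2F transcription factors. Cyclin E with CDK2 completes that step, E2F target genes are transcribed and DNA replication starts. The INK4 proteins p16 (from Cdkn2a) and p15 (from Cdkn2b) block CDK4 and CDK6, p27 (from Cdkn1b) binds and inhibits cyclin E with CDK2, and p19Arf, read from Cdkn2a in another frame, stabilizes p53 by binding Mdm2. Pluripotent mouse cells are known for a short G1 phase and low INK4 protein.

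The probes behind the larger differences are shown by the first 30 of their 60 bases, 5′ to 3′ as printed on the array, with their places on the mm9 assembly as the array files give them. The Ccnd1 probe lies on the minus strand at chr7:152116202-152116261, the Cdk6 probe on the plus strand at chr5:3522106-3522165, and the brighter probes of Cdkn2a and Cdkn2b on the minus strand at chr4:88920405-88920464 and chr4:88952276-88952335, 31.87 kb apart. The exon or UTR that each probe lies in was not analysed here.
Ccnd1: ttaatctgttaggttctagtgttccgtctt
Cdk6: tcctatctttaagtgtatgttgtcagtgta
Cdkn2a, brighter probe: ggcatgagaaactgagcgaaggcggccgcg
Cdkn2a, dimmer probe: cttctagcgatgctagcgtgtctagcatgt
Cdkn2b, brighter probe: ccagtgatgaattgtagtggtagcaggtta
Cdkn2b, dimmer probe: ttgagcctcaccttgaagccaaggggatca
Both Cdkn2a probes are listed for the transcripts of p16 and of p19Arf, so the values below do not separate them. The brighter Cdkn2b probe is listed for 1 transcript.

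ELA-EpiSC had more Ccnd1 RNA and less Cdkn2a and Cdkn2b RNA than EpiSC, and the other 7 genes differed by less than 1 on the log2 scale. The place of Cdkn2b on one side of that size and of Cdk6 on the other is not firm: among 14 other settings of signal, scaling, probe choice and detection, Cdkn2b was past 1 under 6 and Cdk6 under 8, whereas Ccnd1 and Cdkn2a were past it under all 14. The settings with no detection filter and with detection on both arrays must repeat the reported values of the 10 genes. Every probe of these genes was well above background on both arrays. Those settings are among the 6 for Cdkn2b. The mean of detected probes likewise cannot move a gene with 1 probe, such as Ccnd1 or Cdk6. All levels below are log2 of the quantile-normalized intensity on each array, and all differences are log2 ELA-EpiSC minus EpiSC, taken from the brightest probe of a gene. Ccnd1 was 2.21-fold higher in ELA-EpiSC, Cdkn2a 3.81-fold higher in EpiSC and Cdkn2b 2.00-fold higher in EpiSC. Cdk6 came next with 1.98-fold more in ELA-EpiSC, at a low level. Genes were counted past a difference of at least 1 with a mean level of at least 7.5. These sizes come from the methods of the study, which set them for ES cells against ELA together with a corrected p-value; that condition was dropped here because 1 array per group gives none. Of the 10 genes, 8 had the level needed. Of these, 1 (Ccnd1) was past the size toward ELA-EpiSC, where 4.54% of all 16649 genes with that level were, and 2 (Cdkn2a and Cdkn2b) toward EpiSC, where 4.46% were. At 1.5-fold the same 3 genes were counted, against 11.1% of all genes toward ELA-EpiSC and 10.9% toward EpiSC. The median difference was 0.04 over the 10 genes and 0.001 over all 16649.

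**Figure D1:**
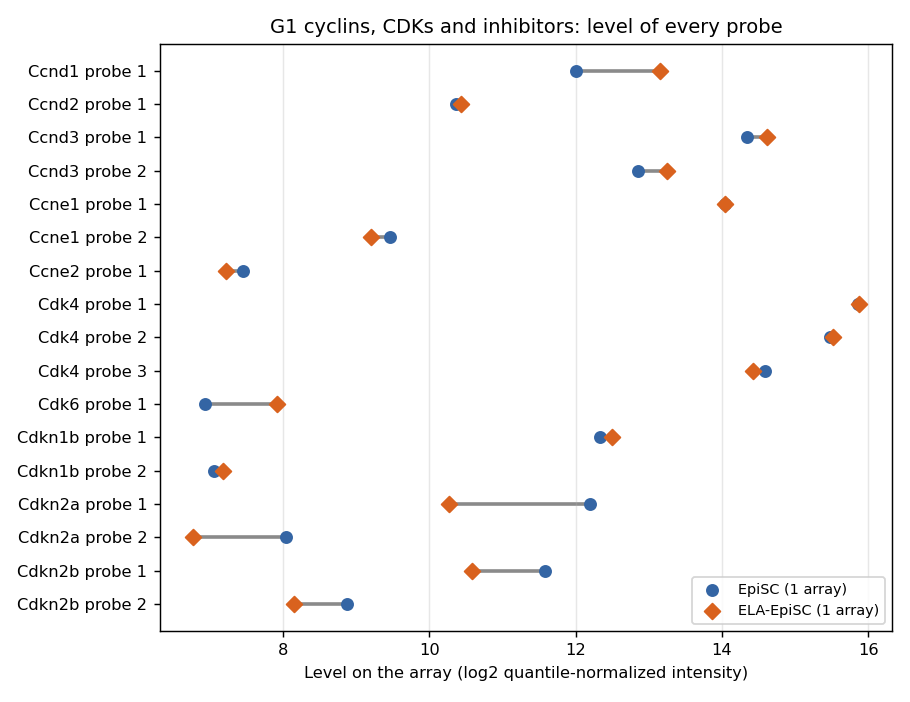
Level of each of the 17 probes on the EpiSC array (circle) and the ELA-EpiSC array (diamond), 1 array each, as log2 of quantile-normalized intensity on the horizontal axis. The wide gaps are those of Ccnd1 and Cdk6, where the diamond lies to the right, and of Cdkn2a and Cdkn2b, where it lies to the left for both probes of each gene; levels of different probes are not to be compared.

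The yardstick for these differences was technical. Over 312 probes printed 10 times and well above background on both arrays, the spread (SD) that the spot noise alone would give a difference was 0.10, with little change over the range of levels (0.11 under log2 7.5 and 0.10 at 10 or more) and at most 0.24 for 1 probe. It covers neither labelling nor culture. The differences of Ccnd2, Ccne1 and Cdk4 lay within 1 such SD of 0, and those of Cdkn1b, Ccne2 and Ccnd3 within 3. Ccnd1, Cdk6, Cdkn2a and Cdkn2b lay well outside.

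Of the D cyclins, the partners of CDK4 and CDK6, Ccnd1 stood apart. Its level was 12.01 in EpiSC against 13.15 in ELA-EpiSC, which is a difference of 1.14, and before normalization its spot signal was 3711 and 9828 intensity units over a local background of 29 on both. Only 3.58% of the 16649 genes had a larger difference. Ccnd1 encodes cyclin D1, which growth factor signalling through ERK is known to induce. Ccnd2 read 10.37 and 10.43, a difference of 0.06. For Ccnd3 the brighter probe read 14.34 and 14.62, a difference of 0.28, and the second read 12.85 and 13.24, a difference of 0.40. All 3 D cyclins were thus on the side of ELA-EpiSC, Ccnd2 within the spot noise, and none changed sign under the 14 settings. Ccnd1 was past 1 in all 14, between 1.04 and 1.80, while Ccnd2 ranged from 0.04 to 0.77 and Ccnd3 from 0.06 to 0.80.

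The E cyclins, which activate CDK2 at the end of G1, differed little. Ccne1 read 14.05 on both arrays at its brighter probe. Its second probe read 9.46 and 9.20, a difference of -0.26, so its 2 probes did not give 1 direction. The brighter Ccne1 probe is mapped by the array files over 24 of its 60 bases. Ccne2 read 7.45 and 7.22, a difference of -0.23, at a mean of 7.33 that was too low to be counted. Neither sign was stable, since Ccne1 moved between -0.14 and 0.59 and changed sign under 3 of the 14 settings, and Ccne2 changed sign under spike-in scaling (0.32).

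The 2 kinases behaved differently from each other in these values. Cdk4 read 15.86 and 15.88 at its brightest probe, 15.48 and 15.51 at the second and 14.58 and 14.42 at the third, with differences of 0.01, 0.03 and -0.16, and its sign changed under 5 of the 14 settings. The brightest Cdk4 probe shares 25 or more bases in a row with a probe of another name, an Ensembl transcript, which read 15.52 and 15.53. Cdk6 read 6.93 in EpiSC against 7.91 in ELA-EpiSC, a difference of 0.99, and 4.71% of genes had a larger one. Its spot signal was 83.2 intensity units over a background of 25 in EpiSC and 223 over 21 in ELA-EpiSC. With a mean of 7.42, Cdk6 fell just short of both the level and the size needed to be counted. Cdk6 is the member most affected by the offset of 50 added before taking logs, which shrinks differences of dim spots. With an offset of 0 its difference was 1.42, with the deposited values 1.32 and with the processed signal 1.76, and it was past 1 under 8 of the 14 settings, the lowest being 0.84 under 75th percentile scaling.

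Among the inhibitors, p27 and the INK4 genes went different ways. Cdkn1b, which encodes p27, read 12.34 and 12.49 at its brighter probe and 7.05 and 7.18 at the other, with differences of 0.16 and 0.13. It stayed above 0 under all 14 settings, between 0.14 and 0.84. Cdkn2a, which encodes p16 and p19Arf, read 12.19 in EpiSC against 10.26 in ELA-EpiSC at its brighter probe, a difference of -1.93, and 8.04 and 6.77 at its dimmer one, a difference of -1.27. Both Cdkn2a probes were higher in EpiSC, with spot signals of 4209 against 1333 intensity units for the brighter and 212 against 83.3 for the dimmer, the latter over a local background of 28. Only 1.08% of the 16649 genes had a lower difference than the brighter probe. Cdkn2a was past 1 toward EpiSC under all 14 settings, between -2.01 and -1.23.

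Cdkn2b, which encodes p15 and is known as a target of TGF-beta signalling, read 11.58 in EpiSC against 10.58 in ELA-EpiSC at its brighter probe, a difference of -1.003. Its dimmer probe read 8.88 and 8.15, a difference of -0.73. Both Cdkn2b probes were again higher in EpiSC, with spot signals of 2725 against 1667 intensity units for the brighter and 398 against 271 for the dimmer. The count of Cdkn2b as past the size is at its edge. It was past 1 toward EpiSC under 6 of the 14 settings, with values from -1.03 to -0.29, the last under spike-in scaling. Of the 6 genes with more than 1 probe, 4 (Ccnd3, Cdkn1b, Cdkn2a and Cdkn2b) had all probes on 1 side of 0.

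**Figure D2:**
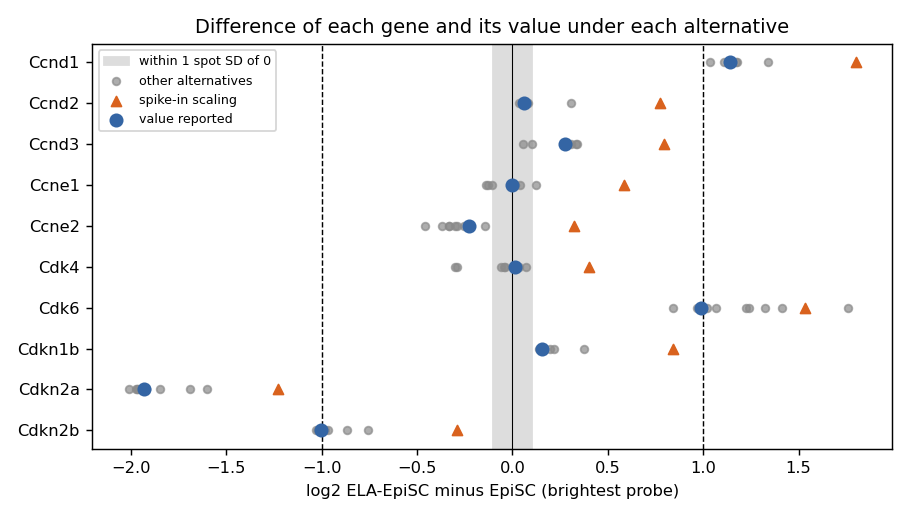
Difference of each gene, log2 ELA-EpiSC minus EpiSC on the horizontal axis, as reported (large circle) and under the other settings (small circles), with spike-in scaling as a triangle; the grey band is 1 spot SD on either side of 0 and the dashed lines mark 1 in either direction. Ccnd1 stays to the right of 1 and Cdkn2a to the left of -1 throughout, Cdk6 and Cdkn2b lie at the lines, and the triangles lie to the right of the reported values for all 10 genes.

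Quantile normalization gives both arrays 1 distribution, so a shift of all genes together would not be seen in these values. Scaling by the spike-in probes, RNAs added in known amount at labelling, of which 8 of 10 were well above background, put the median of all genes at 0.62, and scaling by array medians at 0.15. Relative to the median of all genes, both scalings gave Ccnd1 1.18, Cdk6 0.91, Cdkn2a -1.84 and Cdkn2b -0.91. The values are equal by construction, because each scaling shifts all values of an array by 1 amount. Whether the shift of the spike-in probes comes from the cells or the labelling was not tested.

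**Figure D3:**
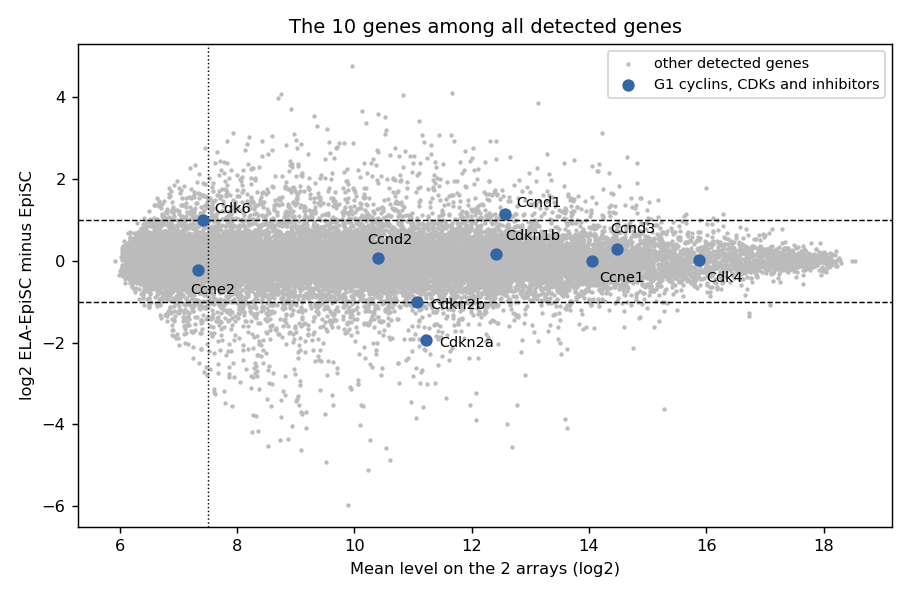
Difference of every gene well above background on at least 1 array (25851 genes, vertical axis, log2 ELA-EpiSC minus EpiSC) against its mean level on the 2 arrays (horizontal axis, log2), with the 10 genes marked, dashed lines at 1 in either direction and a dotted line at a mean of 7.5. Cdkn2a lies below the lower dashed line, with other genes lower still. Ccnd1, Cdk6 and Cdkn2b lie close to the dashed lines and the other 6 genes inside them, with Cdk6 and Ccne2 left of the dotted line.

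Cdkn2a and Cdkn2b are neighbours on chromosome 4, and no other feature near them was past 1. Mtap, the enzyme of methionine salvage next to Cdkn2a, read 9.56 in EpiSC against 10.41 in ELA-EpiSC, a difference of 0.85, in the opposite direction to both inhibitors. It was above 0 under all 14 settings. The other 4 features with a probe well above background within 250 kb of the Cdkn2a probe carry no gene symbol and had differences between -0.09 and 0.11. They were dim, with mean levels of 6.26, 7.34, 7.83 and 8.07. The lowest level well above background was 5.89 in EpiSC and 6.11 in ELA-EpiSC. For the dimmest feature, at 6.26, this leaves little room to read a lower level in ELA-EpiSC. The features at 7.83 and 8.07 had room, and read 7.88 and 8.01 in EpiSC against 7.79 and 8.13 in ELA-EpiSC. Around Ccnd1 on chromosome 7 the picture was mixed. Fgf4, a ligand of FGF receptors 65.1 kb away, read 11.04 in EpiSC against 9.62 in ELA-EpiSC, a difference of -1.41, whereas Fgf15 (-0.01) and Oraov1 (0.25) differed by less. Fgf3 was well above background on the EpiSC array alone, at 6.23. It read 5.97 in ELA-EpiSC, so its difference of -0.26 rests on a value that was not well above background. The other 2 features without a symbol lay at -0.66 and -0.08. Within 250 kb of Cdk6, all 7 other features lay between -0.42 and 0.24. These neighbours were looked at after the values of the 10 genes were known.

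**Figure D4:**
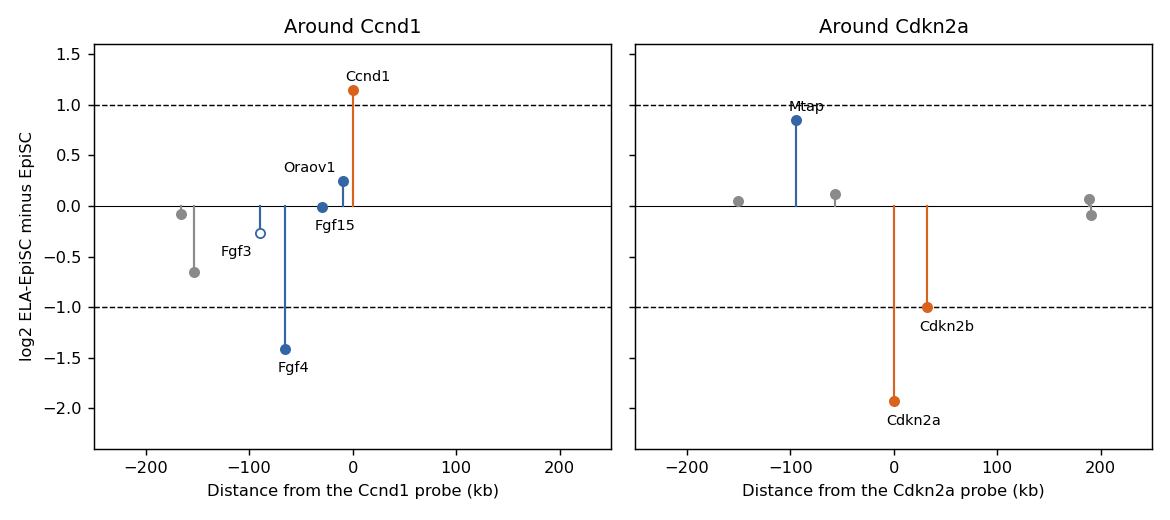
Difference (vertical axis, log2 ELA-EpiSC minus EpiSC) of each gene with a probe well above background against its distance in kb from the Ccnd1 probe (left) or the Cdkn2a probe (right) along the chromosome; orange marks Ccnd1, Cdkn2a and Cdkn2b, blue other named genes and grey features without a symbol, an open circle (Fgf3) a gene well above background on the EpiSC array alone, and dashed lines mark 1 in either direction. Fgf4 lies below -1 on the left, and on the right Cdkn2a and Cdkn2b lie at or below -1 while Mtap lies at 0.85.

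The starts of the INK4 genes are shown because Cdkn2a and Cdkn2b differed together. These are the 250 bases before each start in RefSeq on the GRCm38.p6 build, read on the minus strand, 5′ to 3′. Capitals mark matches on either strand to a GC box (GGGCGG) or to an E2F site (TTTCGCGC, TTTGGCGC, TTTCCCGC or TTTGCCGC). The start of Cdkn2a that lies nearer to Cdkn2b is that of p19Arf, and the other that of p16.
Cdkn2a, p19Arf start, chr4:89294620-89294869: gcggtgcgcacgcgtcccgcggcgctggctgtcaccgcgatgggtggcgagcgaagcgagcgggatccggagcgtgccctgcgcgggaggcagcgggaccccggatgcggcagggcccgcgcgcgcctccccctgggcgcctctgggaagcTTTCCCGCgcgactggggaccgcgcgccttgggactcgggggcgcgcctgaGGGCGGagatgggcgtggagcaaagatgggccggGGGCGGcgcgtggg
Cdkn2a, p16 start, chr4:89282193-89282442: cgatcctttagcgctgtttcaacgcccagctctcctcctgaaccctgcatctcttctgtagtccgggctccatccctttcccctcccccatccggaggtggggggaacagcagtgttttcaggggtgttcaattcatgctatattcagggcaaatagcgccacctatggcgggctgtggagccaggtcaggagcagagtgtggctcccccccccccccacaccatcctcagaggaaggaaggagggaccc
Cdkn2b, chr4:89311033-89311282: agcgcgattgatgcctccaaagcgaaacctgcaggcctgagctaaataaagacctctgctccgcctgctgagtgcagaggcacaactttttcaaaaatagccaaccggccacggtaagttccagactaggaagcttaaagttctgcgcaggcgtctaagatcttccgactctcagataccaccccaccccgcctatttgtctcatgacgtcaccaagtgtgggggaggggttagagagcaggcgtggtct
The p19Arf promoter held 1 E2F site, TTTCCCGC, and 2 GC boxes, none overlapping, with 40 CpG dinucleotides and 78.4% G and C. The p16 promoter held neither motif, 7 CpG dinucleotides and 60% G and C, and that of Cdkn2b neither motif, 12 CpG dinucleotides and 53.6% G and C. Of all 32851 promoters of that length, 1.86% held an E2F site and 32.7% a GC box, and the medians were 6 CpG dinucleotides and 52.4% G and C. GC boxes were not particular to Cdkn2a. The promoter of Ccne1 held 4 of them, with 34 CpG dinucleotides and 76% G and C. Those of Ccnd3, Cdk4 and Cdkn1b held GC boxes too, and that of Cdk6 held none. The E-box CACGTG, present in 6.02% of all promoters, occurred 4 times before the start of Cdk4 and 1 time before that of Cdk6. RefSeq promoters were matched for 7 of the 10 genes (Ccnd1, Ccnd2 and Ccne2 were not matched). A match of letters is not a binding site.

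A further 82 genes were followed, called the other pathway genes. They are regulators of the G1 to S step, E2F targets, S and M phase genes, mitotic genes and Mtap, the neighbour of the INK4 locus. Of the 82, 81 had a probe well above background and 77 the level to be counted. Of these, 4 were past 1 toward ELA-EpiSC and 1 toward EpiSC, beside the 4.54% and 4.46% of all genes given above, and the median over the 81 was 0.13. Among the pocket proteins and E2F factors 1 of 12 was past 1, Rb1, the target of cyclin D with CDK4 or CDK6, which read 9.75 in EpiSC against 10.93 in ELA-EpiSC, a difference of 1.18. E2f2, an activator E2F, lay at the other end of that list with 10.75 and 9.80, a difference of -0.95, and the median of the list was 0.005. The direction of both held under all 14 settings.

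The list of upstream regulators of the D cyclins, p27 and the INK4 locus held both the highest and the lowest difference of the other pathway genes, those of Myc and Tbx3. Myc, a transcription factor that drives entry into the cycle, read 11.07 in EpiSC against 12.54 in ELA-EpiSC, a difference of 1.47. Ets1, a factor known to activate the p16 promoter, read 8.405 and 9.486, a difference of 1.08. Tbx3, a T-box repressor of p19Arf, read 11.37 and 7.62, a difference of -3.75 and was thus higher in EpiSC, as was Cdkn2a. The other T-box repressor of that locus, Tbx2, read 8.26 and 6.48, a difference of -1.78, at a mean of 7.37 that was too low to be counted, and is named after its values were seen. Myc, Ets1 and Tbx3 were past 1 in the same direction under all 14 settings. The median of the 15 genes was 0.45, with 11 above 0 and 4 below.

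Proteins that turn over or modify the cyclin-CDK complexes had 1 of 15 past 1. This was Fbxo4, an F-box protein described for the turnover of cyclin D1, which read 9.28 in EpiSC against 10.60 in ELA-EpiSC, a difference of 1.32. Cks2, a small CDK-binding subunit, had the lowest difference of that list, -0.63, which became 0.04 under spike-in scaling. None of the 3 other CDK inhibitors measured was past 1: Cdkn1a (p21) differed by 0.24, Cdkn1c (p57) by 0.53 and Cdkn2d (p19Ink4d) by 0.11, and Cdkn2c stayed below the background flag on both arrays. The probes of Cdkn1a ranged from -0.24 to 0.24 and did not give 1 direction.

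The lists of S and M phase cyclins and CDKs, of E2F targets and of mitotic genes held no gene past 1, and with 4.54% and 4.46% of all genes past it, few would be counted in lists of this length. Of the 9 S and M phase cyclins and CDKs with the level to be counted 0 were past 1, from Cdk7, the CDK-activating kinase, at -0.20 to Ccna2, cyclin A2, at 0.34, and the sign of Cdk7 changed under median and spike-in scaling. Of 18 E2F target genes 0 were past 1, from Orc1 at -0.56 to Mcm3 at 0.41, both parts of the machinery that licenses replication origins, with a median of 0.07. Of 6 genes of mitosis and proliferation 0 were past 1, from Plk1 at -0.11 to Cdc20 at 0.43. Orc1, Mcm3, Ccna2 and Cdc20 nevertheless lay more than 3 spot SDs from 0 in the reported values. With the processed signal Mcm3 fell to 0.01 and Ccna2 to 0.12, and under 75th percentile scaling Cdc20 fell to 0.15. The dimmer Mcm3 probe differed by 0.19. Under spike-in scaling Orc1 and Plk1 lay above 0.

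**Figure D5:**
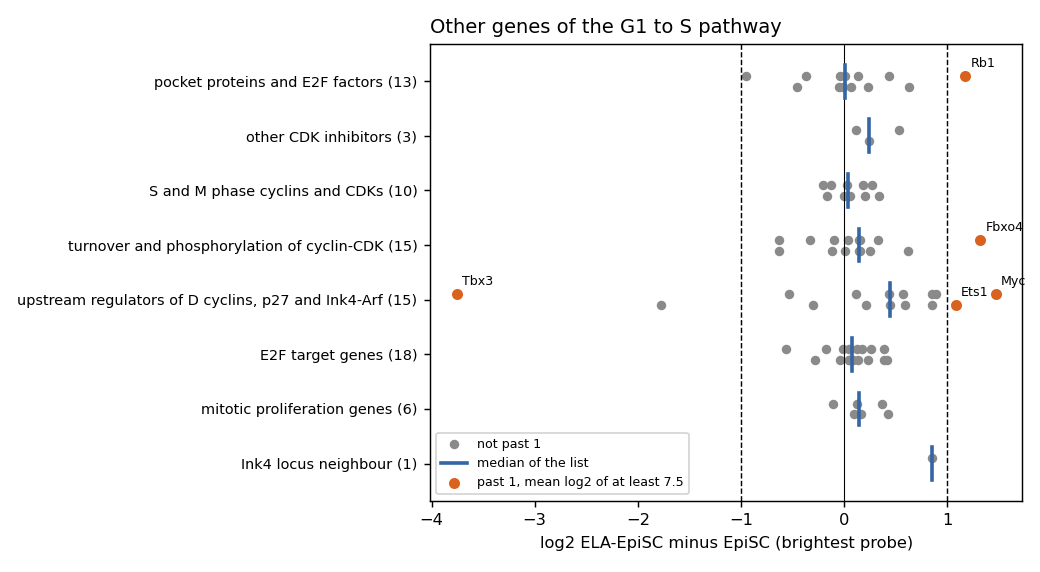
Difference of each measured gene of the 8 lists (log2 ELA-EpiSC minus EpiSC, horizontal axis; the number of genes plotted is in parentheses), with the median of each list as a blue bar, dashed lines at 1 in either direction and the genes past 1 with a mean of at least 7.5 in orange. Rb1, Fbxo4, Ets1 and Myc lie to the right of 1 and Tbx3 at -3.75, and the E2F target, mitotic and S and M phase lists lie within 1 of 0.

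Markers of other cell types differed between the arrays beside these values. All 5 epiblast and pluripotency markers were well above background on both arrays and none was past 1, with differences from -0.27 (Sox2) to 0.32 (Nanog) and a summed linear level of 128881 in EpiSC and 138617 in ELA-EpiSC. The probes of Nanog ranged from -0.31 to 0.32 and did not give 1 direction. Of 6 visceral endoderm markers 5 had the level to be counted and 3 were past 1 toward EpiSC. They were Hnf4a at -5.12, Gata4 at -2.39 and Ttr, well above background on the EpiSC array alone. Sox17, the brightest of the list, lay at -0.93 and Gata6 at -0.57, neither past 1. Sox17 read 13.58 in EpiSC and 12.65 in ELA-EpiSC, and Gata6 read 12.92 and 12.36. The summed level of the list was 32258 and 12871. Afp was near the lowest levels on both (6.26 and 6.47). A summed level is led by the brightest probes of its list. Toward ELA-EpiSC, 2 of 4 mesendoderm markers were past 1 (T at 2.48 and Mixl1 at 1.97, summed level 30560 and 52900), while Gsc lay at 0.54 and Eomes at 0.32. Of 3 neural markers measured Nes was past 1, at 2.11, while Tubb3 lay at 0.72 and Sox1 at -0.09, with Pax6 below the background flag on both arrays. The summed level of 6059 and 22841 was mostly Nes on both arrays. Of 4 fibroblast markers Col1a1 (3.72) and Twist2 (2.92) were past 1 and Col1a2 (0.08) and Thy1 (0.05) were not, with a summed level of 3226 and 5552. The part of such cells in the differences of Ccnd1, Cdk6, Cdkn2a, Cdkn2b and Tbx3 was not tested.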

How the data were processed

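RNA of 1 EpiSC and 1 ELA-EpiSC pool was labelled with Cy3 and hybridized to Agilent SurePrint G3 mouse arrays, on 1 slide and in 1 scan. The deposited scanner files hold the intensity of each spot and of its local background on a linear scale, not normalized, per the file headers from Feature Extraction 10.7.3.1 (the submitters' processing notes name 9.1). A second deposited table holds log2 values per probe that the authors had corrected for background and quantile normalized with limma, per their methods; it served as an alternative.

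Here the mean signal of all spots was background-corrected by normexp with an offset of 50 in limma 3.58.1 (R 4.3.3). Control spots and spots flagged as outliers were left out after that step. Both arrays were then quantile normalized on the log2 scale, and the mean was taken over the spots of a probe. A probe counted as well above background where at least 0.5 of its spots carried that flag of Feature Extraction. A gene took its brightest such probe by the mean of both arrays. The median spot signal was 71.7 and 79.1 intensity units, 65.8% and 65.0% of probes were well above background, and 0 spots were saturated, for EpiSC and ELA-EpiSC. With 1 array per group the number of arrays limits the precision, and no test was possible. The computation was checked on simulated data with changes placed in bright probes only. Dim probes, such as that of Cdk6, were not covered by that check. Named genes were all 10 members with every probe, and from the pathway lists each gene past 1 and the largest and smallest difference of each list. The members, lists, thresholds and alternatives were chosen with earlier results of these data known. Probe coordinates are on mm9, and RefSeq tables of GRCm38.p6 gave synonyms and promoters.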

Additional observations from a re-analysis of the deposited data

How the results depend on the processing

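Counts below are of genes past 1 with a mean of at least 7.5 unless another size is named. No paired analysis was possible because neither group had a second array. Of the 10 genes, 1 in place of 2 was past 1 toward EpiSC under 75th percentile, median and spike-in scaling, cyclic loess, median pixel signal, flagged spots kept, the deposited log2 values and the mean of detected probes, since Cdkn2b then lay between -0.999 and -0.29; Cdkn2a stayed past 1. At a size of 2.5, 0 genes were past it in either direction. The median over the 10 genes was 0.22 under median scaling and 0.68 under spike-in scaling, when the median over all genes was 0.15 and 0.62. Of the other pathway genes, 7 under median scaling, 19 under spike-in scaling, 11 at 1.5-fold and 0 at 2.5 were past the size toward ELA-EpiSC, in place of 4, and 2 with the processed signal and 4 at 1.5-fold toward EpiSC, in place of 1. Over all genes the 756 toward ELA-EpiSC and 742 toward EpiSC became 1114 and 516 under median scaling, 3344 and 257 under spike-in scaling, 1846 and 1823 at 1.5-fold, 67 and 108 at 2.5, and 527 and 481 at a minimum level of 9. Leaving out a replicate was not possible. Signal over background was lowest for the dimmer probe of Cdkn2a, in ELA-EpiSC, and low for Cdk6 in EpiSC and for Ccne2 and the dimmer probe of Cdkn1b on both arrays.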
